A study of Homo sapiens with 8 samples.

Results

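The small nuclear RNAs (snRNAs) of the major and the minor spliceosome were followed in 8-oxoG RIP-seq libraries of BEAS-2B cells, an established human bronchial epithelial cell line. The members were 9 genes, taken by their symbols from 58735 genes in the tables: RNU2-2P, RNU4-1, RNU4-2, RNU5A-1 and RNU5B-1 of the major spliceosome, and RNU11, RNU12, RNU4ATAC and RNU6ATAC of the minor one. They were chosen by their measured level in the pull-down relative to input, so that level is given as a description. Calls of the fit over all genes are printed for it once, beside their share of all genes, and no member is given a p for it. Of the 9 genes, 8 had an expected count in at least 1 library, and 7 were among the 18242 genes that passed the count filter, rounded to 10 or more in 2 libraries. RNU11 was listed at 0 in every library and was not measured under its own symbol, and RNU4ATAC had counts too few to be tested.

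Cells at an air–liquid interface were exposed to 1 ppm formaldehyde (FA) or to clean air (CA) for 2 h and recovered for 6 h. RNA depleted of ribosomal RNA was split from each pool into an input fraction (CA_IN, FA_IN) and a fraction pulled down with an antibody against 8-oxo-7,8-dihydroguanosine (8-oxoG), an oxidized form of guanosine (CA_IP, FA_IP). Each of the 4 groups had 2 libraries from biological replicates, numbered 1 and 3, and the model is 1 cell line in culture without other cell types. The labels give clone 15A3 for the antibody in 1 field and another clone in the protocol.

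An snRNA is a short noncoding RNA that works inside a ribonucleoprotein particle. In the major spliceosome U1 and U2 pair with the 5′ splice site and the branch point, U4 carries U6 into the spliceosome and is then released, and U5 holds the exon ends together. The minor spliceosome removes a rare class of introns with U11, U12, U4atac and U6atac in the corresponding places, and shares U5. Most of these RNAs are made by RNA polymerase II and bind a ring of Sm proteins at a short uridine-rich site, whereas U6 and U6atac are made by RNA polymerase III and bind LSm proteins at their 3′ end.

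The sequences of 5 members are shown because their counts carry the comparison of the classes, and because the guanines in them are what an 8-oxoG antibody could meet. They are the GENCODE 44 transcripts in DNA letters, 5′ to 3′, equal in length to the transcript in the count tables and equal to GRCh38 at the coordinates given below. Capitals mark a Sm-type site, searched on the transcript strand only, as ATTTTG or the same letters with 1 or 2 more T before the G.
RNU2-2P: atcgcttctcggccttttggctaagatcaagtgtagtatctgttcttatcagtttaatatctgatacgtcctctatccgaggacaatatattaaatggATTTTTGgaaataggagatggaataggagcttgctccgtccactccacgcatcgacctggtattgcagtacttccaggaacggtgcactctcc
RNU4-1: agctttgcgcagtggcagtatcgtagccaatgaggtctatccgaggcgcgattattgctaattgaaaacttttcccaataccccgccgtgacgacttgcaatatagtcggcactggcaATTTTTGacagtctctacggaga
RNU4-2: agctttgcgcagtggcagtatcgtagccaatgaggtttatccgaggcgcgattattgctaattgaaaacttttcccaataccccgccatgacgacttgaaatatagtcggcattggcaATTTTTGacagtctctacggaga
RNU12: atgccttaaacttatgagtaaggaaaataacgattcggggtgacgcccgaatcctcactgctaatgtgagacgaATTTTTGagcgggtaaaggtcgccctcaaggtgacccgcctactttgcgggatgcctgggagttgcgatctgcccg
RNU6ATAC: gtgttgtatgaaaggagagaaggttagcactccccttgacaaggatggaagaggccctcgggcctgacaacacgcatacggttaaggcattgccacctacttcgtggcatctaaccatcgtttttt

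These letters were not found in RNU6ATAC. In RNU2-2P they stood at bases 99 to 105 of 191, in RNU12 at bases 75 to 81 of 150, and in both U4 genes at bases 119 to 125 of 141. Of 2851 annotated transcripts of 116 to 191 bases, 9.86% held one of the 3 forms, and of the 376 snRNA transcripts among them 32.4% did. RNU4-1 and RNU4-2 were identical at 97.2% of their bases and differed at 4, counted from 1 at the 5′ end of RNU4-1 (C37T, G88A, C99A and C113T). Guanine made up 21.5% of RNU2-2P, 24.1% of RNU4-1 and 23.4% of RNU4-2. In the minor class it made up 30.6% of RNU11, 28.7% of RNU12, 26.2% of RNU6ATAC and 22.0% of RNU4ATAC, against a median of 24.6% over the 2851 transcripts. The measured minor RNAs RNU12 and RNU6ATAC thus held a larger share of guanine than RNU2-2P and both U4 genes.

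RNU4-1 is at chr12:120293097-120293237 and RNU4-2 beside it at chr12:120291763-120291903, both on the minus strand (GRCh38). RNU2-2P is at chr11:62841619-62841809 on the minus strand, and all of its 191 bases also lie in an exon of WDR74. RNU12 is at chr22:42615244-42615393 on the plus strand, and all of its 150 bases lie in a longer noncoding transcript of 664 bases. RNU11 is at chr1:28648600-28648733 on the plus strand and shares 131 bases with an unnamed noncoding record. RNU4ATAC is at chr2:121530881-121531007 on the plus strand and RNU6ATAC at chr9:134164439-134164564 on the minus strand. Each member is a single exon with 1 annotated transcript.

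The 4 input libraries held 26.15 M to 45.14 M expected counts, and the 4 pull-down libraries 16.88 M to 23.66 M. Of the markers of the cell line, all 9 epithelial and 3 mesenchymal genes were detected in every library, KRT5 at 710.9 CPM (TMM-scaled counts per 1000000 counts of the library) or more, whereas the leukocyte gene PTPRC stayed at or below 0.0547 CPM. The endothelial gene PECAM1 was also counted in every library, at 0.299 to 0.711 CPM. The airway and alveolar genes SCGB1A1, FOXJ1, MUC5AC and SFTPC stayed at or below 0.289 CPM. With library size in place of TMM scaling the median log2 fold of all genes in the pull-down moved from 0.0035 to 0.173 in FA and from 0.0163 to 0.164 in CA, and the calls over all genes from 268 lower and 6 higher to 243 and 318 in FA and from 322 and 27 to 336 and 821 in CA. The log2 folds of the members, all at -1.28 or below, kept their direction under it.

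Together the 9 genes held 528 and 567 CPM in CA_IN and 559 and 411 CPM in FA_IN. In the pull-down they held 48.4 and 58.7 CPM in CA_IP and 49.1 and 65.9 CPM in FA_IP. Every pull-down library lay below every input library. RNU2-2P alone accounted for most of this sum.

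**Figure D1:**
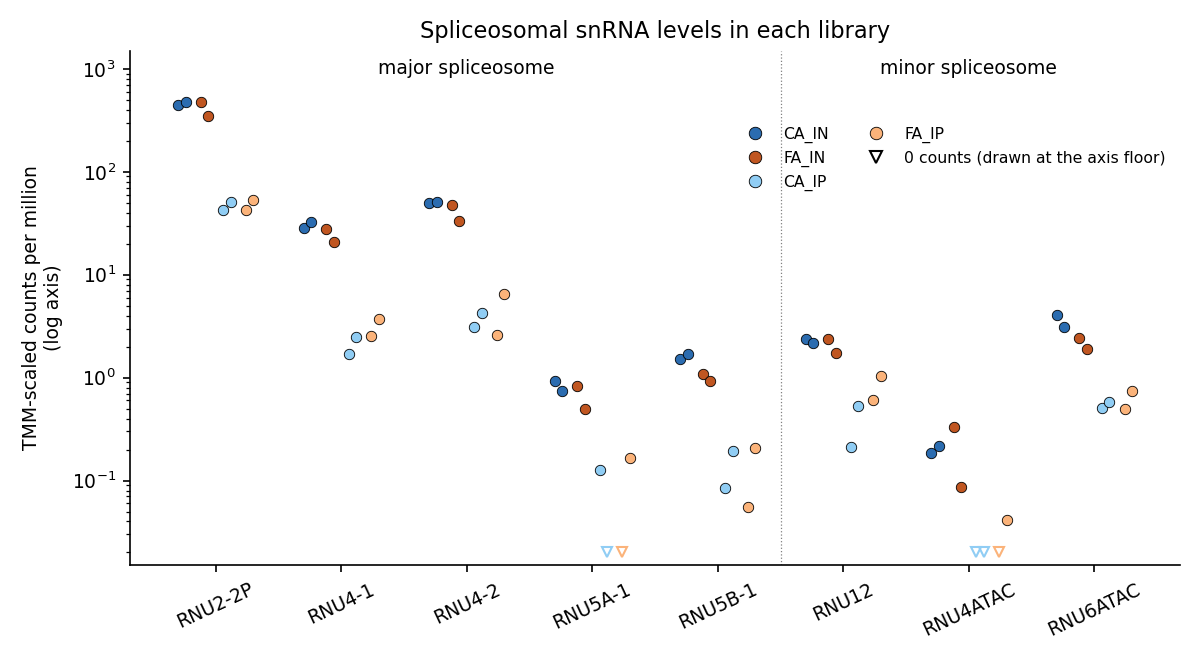
TMM-scaled CPM (log axis) of 8 snRNA genes in the 8 libraries, 1 point per library, coloured by group; open triangles stand for libraries with 0 counts. For the 7 genes above RNU4ATAC in count, each pull-down point lies below the input points of the same gene, and RNU2-2P lies about an order of magnitude above the next gene.

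RNU2-2P encodes a U2 snRNA, which pairs with the intron branch point. It stood at 441 and 476 CPM in CA_IN and at 477 and 352 CPM in FA_IN. In the pull-down it stood at 42.7 and 50.7 CPM in CA_IP and at 42.8 and 53.5 CPM in FA_IP. The input and pull-down libraries did not overlap, and the log2 fold was -3.30 ± 0.18 (SE) in CA and -3.10 ± 0.17 in FA. The annotated RNU2-1 gene was listed at a count of 0.18 or less in every library, and reads that fit several U2 copies may have been given to RNU2-2P, so its level is that of U2 reads and not surely of this gene. The overlapping WDR74 transcript behaved otherwise, at 7.49 and 6.09 CPM in CA_IN and 5.92 and 3.80 CPM in CA_IP, which is 1.39-fold lower (95% counting interval 1.18 to 1.63). In FA it stood at 8.42 and 3.98 CPM in FA_IN and 6.38 and 5.03 CPM in FA_IP. Pooled, this was 1.03-fold lower (0.873 to 1.23), with the 2 pools in opposite directions.

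RNU4-1 and RNU4-2 encode U4, the partner that keeps U6 inactive until the spliceosome forms. RNU4-2 stood at 50.01 and 50.5 CPM in CA_IN and 3.13 and 4.24 CPM in CA_IP, and at 47.7 and 33.1 CPM in FA_IN and 2.599 and 6.53 CPM in FA_IP. RNU4-1 stood at 28.2 and 32.2 CPM in CA_IN and 1.69 and 2.51 CPM in CA_IP, and at 27.7 and 20.8 CPM in FA_IN and 2.54 and 3.70 CPM in FA_IP. Neither gene had overlapping input and pull-down libraries. The log2 fold of RNU4-1 was -3.85 ± 0.26 (SE) in CA and -2.94 ± 0.25 in FA, and that of RNU4-2 was -3.77 ± 0.36 in CA and -3.11 ± 0.35 in FA. Because the genes differ at 4 bases only, reads that cover none of these may be divided between them.

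RNU5A-1 and RNU5B-1 encode variants of U5, which serves both spliceosomes. For RNU5B-1, the CA libraries gave 66 and 62 counts before and 2 and 4 after the pull-down, and the FA libraries 26 and 32 before and 1 and 5 after it. Pooled over the libraries of a group and scaled to their depth, it was 11.8-fold lower in CA_IP (95% counting interval 5.28 to 32.8) and 6.995-fold lower in FA_IP (3.03 to 19.8). For RNU5A-1, the CA libraries gave 40 and 27 counts before and 3 and 0 after it, and the FA libraries 20 and 17 before and 0 and 4 after it. Pooled in the same way it was 12.4-fold lower in CA_IP (4.06 to 61.5) and 6.69-fold lower in FA_IP (2.40 to 25.9). Such intervals allow for counting error alone and leave out the spread between the 2 libraries of a group. They may also be too narrow for counting error, because amplified reads without identifiers may stem from the same molecule. For the U5 genes the intervals span the folds of the other major members. They also span the fold of RNU6ATAC in both treatments and that of RNU12 in CA, so they do not place the U5 genes with either class.

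U12 takes the place of U2 at the branch point of minor introns. RNU12 stood at 2.39 and 2.19 CPM in CA_IN and 0.211 and 0.531 CPM in CA_IP, a log2 fold of -2.64 ± 0.42 (SE). After formaldehyde it stood at 2.37 and 1.74 CPM in FA_IN and 0.608 and 1.03 CPM in FA_IP, a log2 fold of -1.28 ± 0.38. The input and pull-down libraries did not overlap in either treatment. With the overlapping noncoding transcript added, an alternative chosen after seeing the data, the log2 fold in CA was -1.58 and in FA -1.18. That overlapping transcript alone was 1.43-fold lower in CA_IP (95% counting interval 0.964 to 2.16) and 1.94-fold lower in FA_IP (1.13 to 3.48), where RNU12 itself was 2.33-fold lower (1.59 to 3.49).

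U6atac pairs with the 5′ splice site of minor introns and with U12 in the catalytic core. RNU6ATAC stood at 4.02 and 3.09 CPM in CA_IN and 0.507 and 0.579 CPM in CA_IP, a log2 fold of -2.71 ± 0.30 (SE). After formaldehyde it stood at 2.41 and 1.91 CPM in FA_IN and 0.498 and 0.740 CPM in FA_IP, a log2 fold of -1.76 ± 0.31. The libraries of input and pull-down did not overlap in either treatment. RNU4ATAC, the partner of U6atac, had 8 and 8 counts in the CA inputs and none in either CA pull-down, and 8 and 3 counts in the FA inputs with 0 and 1 in the FA pull-downs. Taken against a floor of 3 counts over the group, it was 2.95-fold lower in CA_IP, a value that leaves out counting error in the input. With 1 count it was 7.96-fold lower in FA_IP with a counting interval from 1.16 to 343. U11 pairs with the 5′ splice site of minor introns, and RNU11 had no count. The record that shares 131 of its bases stood at 0.827 and 0.765 CPM in CA_IN and 0.338 and 0.338 CPM in CA_IP. In FA it stood at 0.749 and 0.492 CPM in FA_IN and 0.0553 and 0.493 CPM in FA_IP. Pooled, that record was 2.36-fold lower in CA_IP (counting interval 1.33 to 4.47) and 1.95-fold lower in FA_IP (1.01 to 4.01). Counted as RNU11, an alternative chosen after seeing the data, it had a log2 fold of -1.23 ± 0.59 (SE) in CA. In FA the fold was -1.02 ± 0.64. Both folds lay nearer to input than those of the members tested, but in FA not beyond the SE from RNU12.

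At an adjusted p under 0.05 in edgeR's quasi-likelihood test over all 18242 genes, 6 of the 7 members tested counted as lower in CA_IP than in CA_IN, where 1.77% of all genes did and 0.148% counted as higher. In FA, 5 of 7 members counted as lower, where 1.47% of all genes did and 0.0329% counted as higher. RNU5A-1 was outside the call in both treatments and RNU12 in FA. With the RNA pool as a block all 7 members counted as lower in both treatments, where 5.85% of all genes did in CA and 4.60% in FA. Under that block the calls over all genes were 1067 lower and 2112 higher in CA and 840 lower and 995 higher in FA. No reading is taken from these shares, since the members were chosen by these values. Without any 1 of the 4 FA libraries the count in FA was 3, the U2 gene and both U4 genes, and without replicate 1 of CA_IP the count in CA was 4. All 7 members lay in the lowest 1.91% of the log2 folds of all genes in FA and in the lowest 0.526% in CA.

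**Figure D2:**
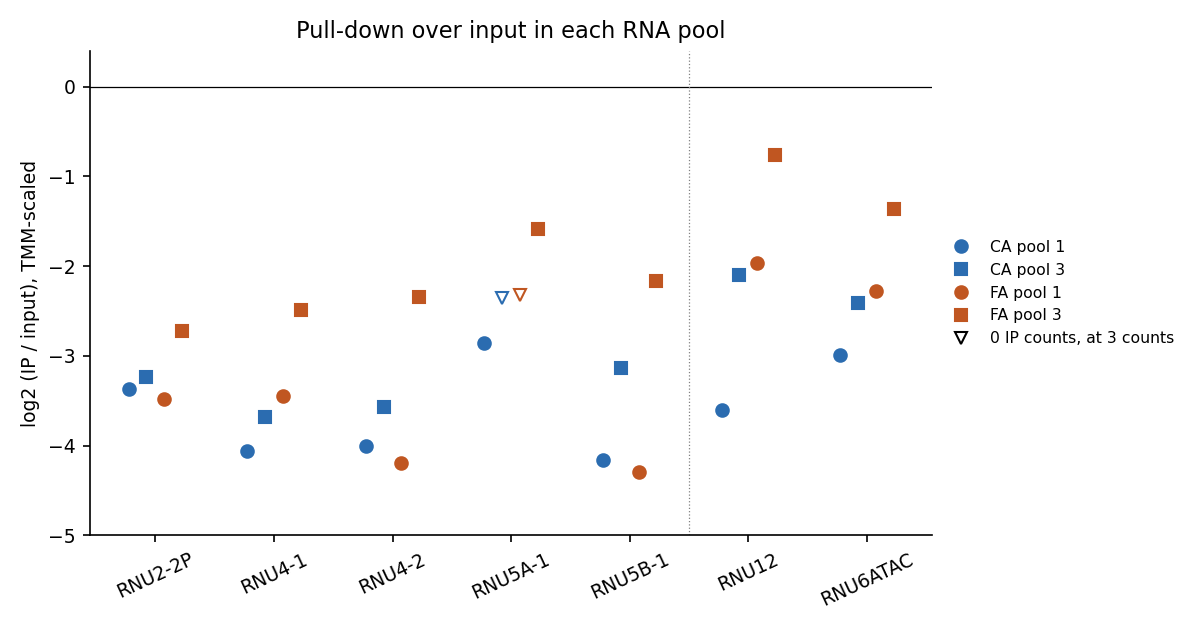
log2 ratio of pull-down to input (TMM-scaled CPM) in each of the 4 RNA pools for the 7 snRNAs tested, blue for clean air and orange for formaldehyde; open triangles are pools with 0 pull-down counts, drawn at 3 counts. All points lie below 0, and pool 3 of formaldehyde is the highest point of each gene.

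The pull-down values also differed between pools of 1 treatment. RNU2-2P was 10.3-fold and 9.40-fold lower in the CA pools, and 11.1-fold and 6.58-fold lower in the FA pools. RNU4-2 was 16.0-fold and 11.9-fold lower in the CA pools, and 18.3-fold and 5.07-fold lower in the FA pools. RNU12 was 12.1-fold and 4.27-fold lower in the CA pools, and 3.90-fold and 1.70-fold lower in the FA pools. In all 7 members pool 3 of FA had the log2 ratio nearest to 0. The same pool had the highest ratio in 61.4% of 88 other genes with a main transcript under 200 bases, and in 18.4% of the 15660 genes with a main transcript of at least 1000 bases. RSEM's effective length of both U4 genes was 2.42 and 2.17 bases in CA_IN and 2.17 and 2.82 in CA_IP. It was 1.86 and 1.55 in FA_IN and 1.29 and 2.84 in FA_IP, so pool 3 of FA had the lowest input and highest pull-down value. The part of such library differences in the ratios, and in the treatment comparison below, was not tested.

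Major and minor snRNAs were set against each other within libraries. The ratio of major to minor expected counts, in which library depth cancels, was 79.1 and 102 in CA_IN and 109 and 109 in FA_IN. In the pull-down it was 67.8 and 52.7 in CA_IP and 43.6 and 35.6 in FA_IP. All pull-down libraries had a lower ratio than all input libraries, and both FA_IP libraries had a lower ratio than both CA_IP libraries. RNU11 adds no count to the minor sum, and a record that shares 131 bases with it was left out. That record had 8 and 7 counts in CA_IP and 1 and 12 in FA_IP. With it added, the CA_IP and FA_IP ratios would overlap, while the pull-down ratios would stay below those of input. The minor sum in the pull-down rests on 16.7 to 43.8 counts a library, and the major sum is mostly RNU2-2P. RNU2-2P has 191 bases, and RNU12 and RNU6ATAC have 150 and 126. The ratio does not remove library differences in the recovery of RNAs of unlike length.

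**Figure D3:**
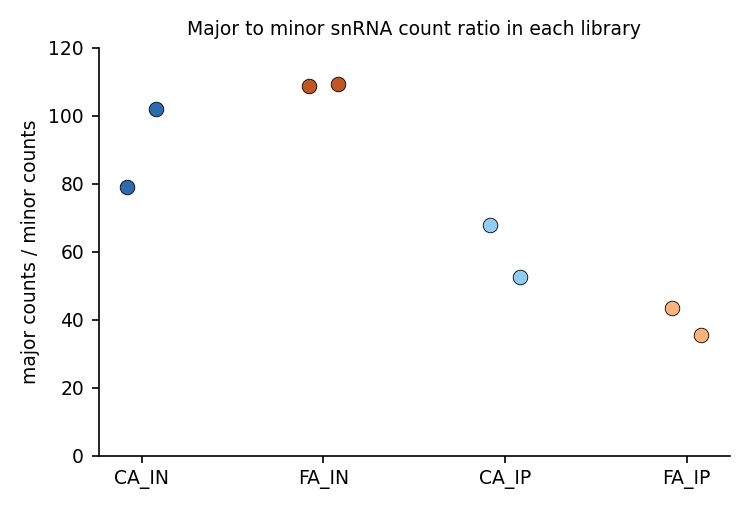
Ratio of summed expected counts of the 5 major to the 4 minor snRNA genes in each library (linear axis from 0), 1 point per library. The 4 input libraries lie between 79.1 and 109 and the 4 pull-down libraries between 35.6 and 67.8.

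Averaged over genes, the log2 ratio of pull-down to input was lower for the 5 major members than for RNU12 and RNU6ATAC in each pool. The major members include both U5 genes, although U5 serves the minor spliceosome as well. The difference was -0.44 and -1.98 in the CA pools, a mean of -1.21 ± 1.08 (SD, n = 2), and -2.46 and -1.19 in the FA pools, a mean of -1.83 ± 0.90 (SD, n = 2). These means take in RNU5A-1, which had 0 pull-down counts in 2 of the pools. With those pools set to 3 counts, the difference was -0.40 and -0.94 in CA and -1.43 and -1.20 in FA, and with RNU5A-1 left out it was -0.61, -1.15, -1.73 and -1.37. The direction was the same in all 4 pools, while in CA the SD was close to the mean. In pooled counts the minor RNAs RNU12 and RNU6ATAC were 6.80-fold and 6.65-fold lower in CA and 2.33-fold and 3.32-fold lower in FA. The major members were 9.85-fold to 14.5-fold lower in CA and 6.69-fold to 8.24-fold lower in FA. RNU12 and RNU6ATAC also differed from RNU2-2P and the U4 genes in abundance, in length and in guanine content. The part of these in the difference was not tested.

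Formaldehyde and clean air were compared in input, a comparison the choice of members did not use. All 7 members had a lower mean in FA_IN than in CA_IN, and 0 of 7 passed an adjusted p of 0.05 in edgeR's quasi-likelihood test, where 0.00548% of all genes did. At an unadjusted p under 0.05 there was 1 member in edgeR and 0 in DESeq2. The lowest p was that of RNU6ATAC, at 4.02 and 3.09 CPM in CA_IN and 2.41 and 1.91 CPM in FA_IN, without overlap, with a log2 difference of -0.73 ± 0.25 (SE) and an edgeR adjusted p of 0.945 (0.110 to 1.00 over 16 alternatives). RNU5B-1 had a log2 difference of -0.68 ± 0.34 and an edgeR adjusted p of 0.945. RNU4-1 and RNU4-2 each had a log2 difference of -0.32, with an SE of 0.21 and 0.30 and an edgeR adjusted p of 0.945. RNU2-2P at -0.15 ± 0.16 and RNU12 at -0.17 ± 0.32 had overlapping libraries, as did RNU5A-1 at -0.36 ± 0.57. The median difference of the 7 members was -0.32, against 0.0188 for all genes and -0.42 for 88 other genes with a main transcript under 200 bases. Replicate 3 of FA_IN was the lower of the FA_IN libraries for all 7 members, and without it the difference was 0.03 for RNU2-2P and RNU12, -0.02 for RNU5A-1, -0.10 for RNU4-2 and -0.15 for RNU4-1, against -0.59 for RNU5B-1 and -0.58 for RNU6ATAC. With the file number as a block, edgeR called 244 genes lower and 14 higher in input and 0 of the 7 members, of which RNU6ATAC had an adjusted p of 0.110 and RNU5B-1 of 0.327. At an unadjusted p under 0.05 there were 3 members in that fit. Libraries of bulk RNA cannot tell less RNA per cell from a changed makeup of the culture.

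The difference between the treatments in pull-down over input was tested as an interaction, which draws on the same 8 libraries as the values above. It was above 0 for all 7 members, which means a pull-down level nearer to input after formaldehyde, and 0 of 7 passed an adjusted p of 0.05 in edgeR's quasi-likelihood test, where 0% of all genes did. The median of the members was 0.80, against -0.021 for all genes. It was 0.50 for the 88 other genes with a main transcript under 200 bases and 1.14 for the other snRNA genes tested, so the medians shared a direction. Among the other snRNA genes, RNU1-2 and RNU1-4 at -0.47 and RNU5E-1 at -0.19 went the other way. At an unadjusted p under 0.05 there were 2 members in edgeR and 1 in DESeq2, and 4 in edgeR with the RNA pool as a block. After adjustment that block called 0 of the 7 members, and 5 genes lower and 20 higher over all genes. RNU12 had an interaction of 1.36 ± 0.58 (SE) on the log2 scale with an edgeR adjusted p of 1.00, and of 0.39 with the overlapping noncoding transcript added. RNU4-1 had an interaction of 0.92 ± 0.35 with an edgeR adjusted p of 1.00. With the RNA pool as a block the edgeR adjusted p of RNU4-1 was 0.374, the lowest for this comparison over the members and the alternatives run. RNU6ATAC had an interaction of 0.95 ± 0.45 and RNU2-2P of 0.19 ± 0.23. Without the FA_IP library of pool 3 the interaction fell below 0 for RNU4-2, RNU5A-1 and RNU5B-1 and was 0.95 for RNU12, 0.65 for RNU4-1 and RNU6ATAC and 0.06 for RNU2-2P.

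**Figure D4:**
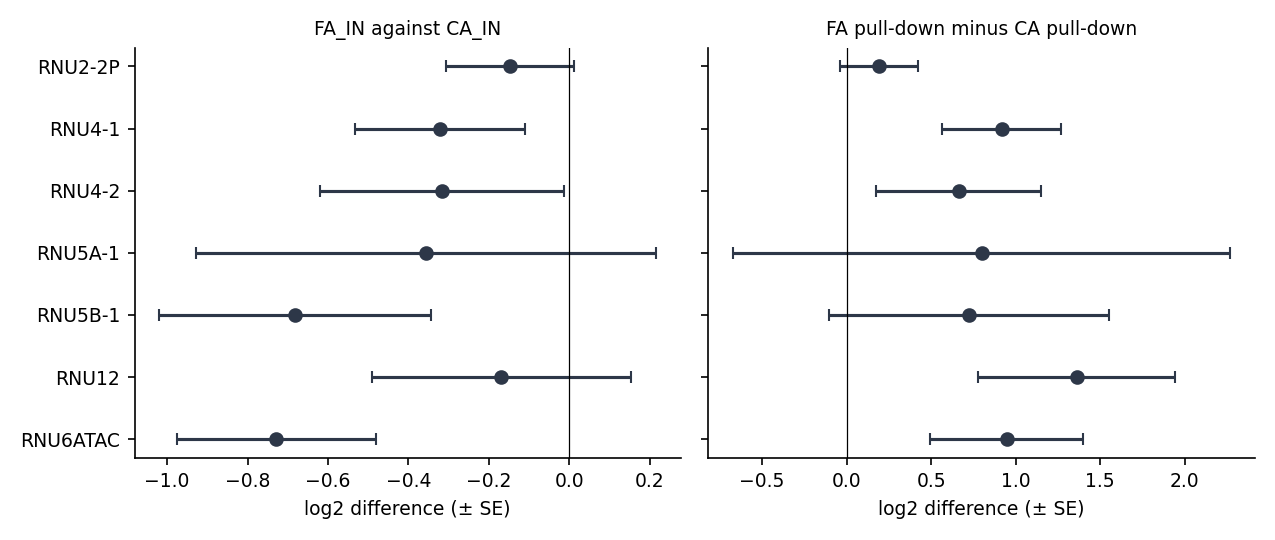
log2 differences with SE (horizontal bars) from edgeR for the 7 snRNAs tested: FA_IN minus CA_IN on the left, and the pull-down over input in FA minus that in CA on the right. All points lie left of 0 in input and right of 0 for the interaction, and none passed an adjusted p of 0.05.

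Levels of the genes were ordered per kilobase of annotated length, since RSEM's effective length was 18.3 bases or less for every member and 0 for several. In CA_IN, RNU2-2P stood at 2400.3 ± 129 CPM per kilobase (SD, n = 2), RNU4-2 at 356 ± 2.49, RNU4-1 at 214 ± 19.9 and RNU6ATAC at 28.2 ± 5.23. RNU12 at 15.3 ± 0.955 and RNU5B-1 at 13.8 ± 1.09 did not differ beyond their spread, and RNU5A-1 followed at 7.14 ± 1.10 and RNU4ATAC at 1.58 ± 0.194 CPM per kilobase. In FA_IN the order was the same, but RNU6ATAC at 17.1 ± 2.83 and RNU12 at 13.7 ± 2.998 overlapped. The U5 genes, which were placed in the major class here though U5 serves both spliceosomes, were thus counted at levels per annotated length of the minor RNAs. Annotated length does not stand in for effective length. In replicate 1 of CA_IN the latter was 16.8 bases for RNU2-2P, 2.42 for both U4 genes, 3.90 for RNU12 and 0 for both U5 genes and RNU6ATAC. The part of RNA length in this order was not tested, so it is not an order of abundance in the cell.

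The other snRNA genes of a list of 25 were looked at beside the members, and 9 of them passed the count filter. All 9 counted as lower in CA_IP and 6 in FA_IP, with a median log2 fold of -3.27 in CA and -2.41 in FA, against medians of 0.0163 and 0.0035 for all genes. The listed copies of U1, the RNA that finds the 5′ splice site, summed to 508 and 602 CPM in CA_IN, 47.0 and 80.9 CPM in CA_IP, 509 and 416 CPM in FA_IN and 62.6 and 107 CPM in FA_IP. Every pull-down library lay below every input library. Single U1 copies are uncertain, since RNU1-1 and RNU1-3 had the same counts in every library, as had RNU1-2 and RNU1-4. RNU1-1 stood at 1.90 and 3.14 CPM in CA_IP and at 7.19 and 22.3 CPM in FA_IP, with an interaction of 2.87 ± 0.64 (SE) and an edgeR adjusted p of 1.00, while RNVU1-18 stood at 0.657 CPM in the FA_IP library in which RNU1-1 was highest. RNVU1-7, a U1 variant, stood at 10.8 and 13.5 CPM in CA_IP and at 24.5 and 26.3 CPM in FA_IP, with an interaction of 1.14 ± 0.22 and an edgeR adjusted p of 1.00. RNU1-2 went the other way, at 15.2 and 29.0 CPM in CA_IP and 8.19 and 17.5 CPM in FA_IP. Its interaction was -0.47 ± 0.51. RNU5D-1, RNU5E-1 and RNU5F-1 had log2 folds in CA of -3.24, -2.21 and -3.27. Of these RNU5F-1 had an interaction of 1.43 ± 0.49 with an edgeR adjusted p of 1.00. Those of RNU5D-1 and RNU5E-1 were 0.24 ± 1.74 and -0.19 ± 0.70. The 5 listed U6 copies together held 13 counts or fewer in any library, and RNU7-1, whose RNA processes histone messages, was listed at 0.

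The low pull-down of the members was shared by other short RNAs. Of the 112 tested genes with a main transcript under 200 bases, 63 counted as lower in CA and 40 in FA, with median log2 folds of -2.83 and -2.39. Without snRNAs, 88 such genes were left, of which 43 counted as lower in CA and 26 in FA, with medians of -2.76 and -2.30. Among the 67 snoRNA genes, which guide chemical modification of other RNAs, the medians were -2.84 in CA and -2.41 in FA. For main transcripts from 200 to under 500 bases the medians were -0.49 in both treatments, and for those of at least 1000 bases 0.03 and 0.01. The major members, at -3.30 to -3.85 in CA, lay below the median of the 88 other short genes, and RNU12 and RNU6ATAC, at -2.64 and -2.71, lay just above it. In FA the major members lay at -2.75 to -3.11, below the median of -2.30, and RNU12 and RNU6ATAC, at -1.28 and -1.76, lay further above it than in CA. The size of the RNA and its place in the pull-down cannot be told apart for the members, all of which are shorter than 200 bases.

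**Figure D5:**
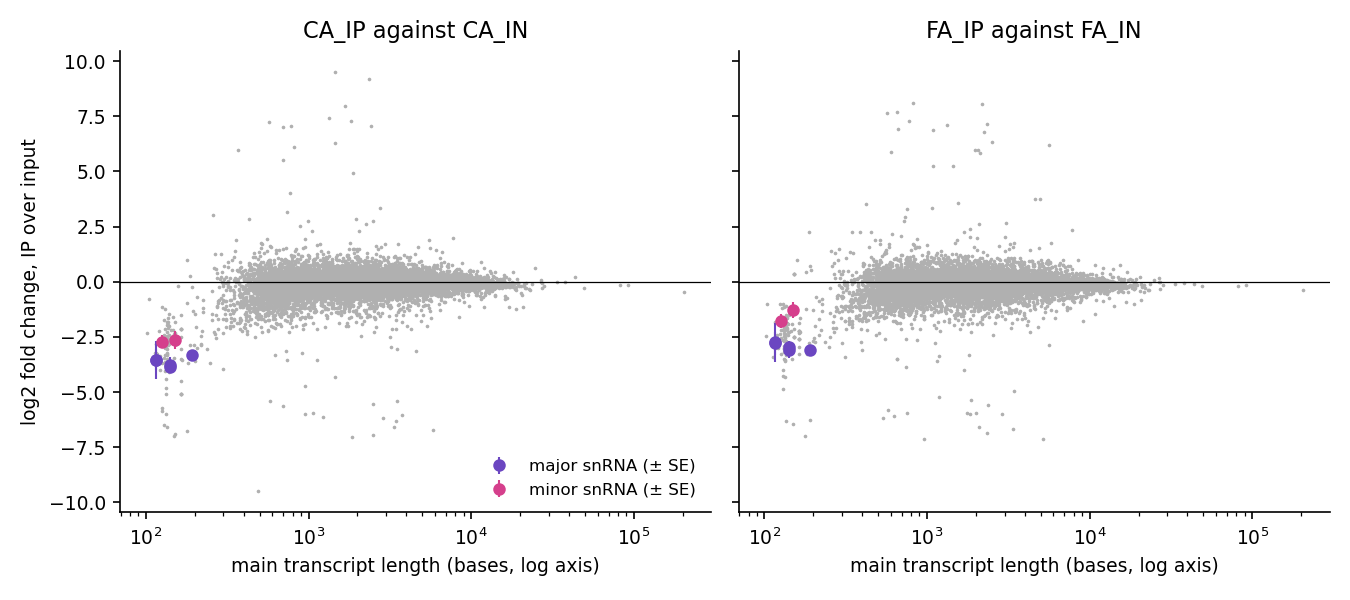
log2 fold of pull-down over input from edgeR against the length of the main transcript (log axis) for all 18242 genes tested (grey), with the major and minor snRNAs marked (± SE), in clean air (left) and formaldehyde (right). The snRNAs lie at the short end of the axis among other short genes, with medians of -2.83 and -2.39 for the 112 genes under 200 bases.

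Genes of proteins that work with snRNAs were described from 4 lists with 105 genes, all of which passed the count filter. Of these, 6 counted as lower in CA_IP and 5 in FA_IP, and 0 counted as higher in edgeR with TMM scaling, against 9 and 5 with library size in its place. The shares of all genes that counted as lower were 1.77% in CA and 1.47% in FA. With the RNA pool as a block, 13 of the 105 counted as lower and 19 as higher in CA, and 12 as lower and 10 as higher in FA. The medians of 0.05 in CA and 0.04 in FA lay near those of all genes. In FA the 5 lower calls were 1 without any 1 of the 4 FA libraries and 3 without replicate 3 of CA_IN, and in CA the 6 were 3 without replicate 1 of CA_IN and 2 without replicate 3 of CA_IN or replicate 1 of CA_IP. Of 14 Sm and LSm genes, whose proteins form the rings on snRNAs, 4 counted as lower in CA and 3 in FA. SNRPG, an Sm protein, stood at 114 and 114 CPM in CA_IN and 38.7 and 41.9 CPM in CA_IP, with a log2 fold of -1.50 ± 0.09 (SE) in CA and -1.32 ± 0.09 in FA. SNRPD2 and SNRPE had log2 folds of -0.58 in CA and -0.61 and -0.50 in FA, and LSM5 had -0.74 in CA. Of 31 genes of major particles, SF3B6 at -0.78 in CA and -0.61 in FA and SF3B5 at -0.68 and -0.73 counted as lower in both treatments, both being subunits of the U2-bound SF3B complex. Main transcripts of these 6 genes were 538 to 942 bases long. Of 13 genes of minor particles and 47 genes of snRNA synthesis, maturation and transport, 0 were called by edgeR in either treatment, with 5 at an unadjusted p under 0.05 in CA and 3 in FA, and DESeq2 called 1 in CA and 0 in FA. In these the log2 fold in FA ran from -0.55 ± 0.13 for SCNM1 to 0.37 ± 0.24 for ZRSR2 in the minor list, and from -0.20 ± 0.12 for ICE2 to 0.39 ± 0.23 for GEMIN8 in the other. In the input comparison and the interaction, 0 of the 105 genes were called by edgeR or by DESeq2, with 3 and 0 at an unadjusted p under 0.05 in each, while edgeR with the file number as a block called 4 lower in input.

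The genes whose pattern over the 8 libraries was most like that of the snRNAs were found by Pearson correlation of TMM-scaled log2 CPM, which is given without a test because the points share their libraries and fall into input and pull-down. For the mean profile of the major members these were SNORA74D (r = 0.995), SNORA2C (0.995), SNORA68 (0.989), MED31 (0.984) and SNORA54 (0.982). For the mean profile of the minor members they were RNU5F-1 (r = 0.996), SNORA64 (0.988), SNORA7A (0.986), SNORA54 (0.983) and UQCRHL (0.982). SNORA74D, of 141 bases, stood at 2.69 and 3.39 CPM in CA_IN and 0.169 and 0.193 CPM in CA_IP. Of the 9 different genes, 7 have main transcripts of 117 to 141 bases, whereas MED31 and UQCRHL are protein-coding genes with main transcripts of 1654 and 2180 bases.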

How the data were processed

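RNA of BEAS-2B cells was sequenced in 8 libraries, 4 groups of 2. The authors trimmed reads with cutadapt, aligned them with STAR 2.6.0a to GRCh38 and deposited RSEM 1.2.25 expected counts per Ensembl transcript, without normalization. Effective lengths (bases) were read as a description. The authors also deposited tables of their own DESeq2 comparisons (fold changes and p-values), which were not used. Expected counts were summed by gene and rounded, and genes reaching 10 in 2 or more libraries went into edgeR 4.0.16 (TMM, quasi-likelihood, all 8 libraries, prior count 0.125) in R 4.3.3, with Benjamini-Hochberg adjustment over all genes and a limit of 0.05. CPM are TMM-scaled. DESeq2 1.42.0, library size, no filter, a mean count of 50, 4 libraries per comparison, blocks, a prior count of 2 and leaving out each library were alternatives. The test was checked on simulated counts. The 95% counting intervals are exact (conditional binomial), and folds against 0 counts use a floor of 3.

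Members, lists and tests were chosen with earlier results of these data known. Named genes are each member, called pathway genes (at most 5 a list, otherwise the list's extremes in FA), other snRNAs past the filter, and the 5 genes most like each class. Replicate numbers come from the deposited file names. Input and pull-down of 1 number come from 1 RNA pool by the study's methods, and deviations of same-numbered libraries correlated at 0.699 in CA and 0.524 in FA (12639 genes), so the pool is given as a block where it changed a call. Formaldehyde and clean air chambers ran in parallel, but the sources do not say that a number marks an exposure. Deviations of same-numbered libraries correlated at 0.429 to 0.509 across treatments, so the number as a block is given beside the input results. p-values measure the spread between 2 libraries a group. The sequences and positions of the U5 genes are not reported here.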

Additional observations from a re-analysis of the deposited data

Results flagged for a closer look

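RNU4-1 differed between the treatments in opposite directions in the 2 fractions. Both FA_IN libraries (27.7 and 20.8 CPM) lay below both CA_IN libraries (28.2 and 32.2 CPM). Both FA_IP libraries (2.54 and 3.70 CPM) lay above both CA_IP libraries (1.69 and 2.51 CPM). The share of all genes with such a pattern is not given. The 88 other genes with a main transcript under 200 bases had medians of the same signs, -0.42 in input and 0.50 for the interaction. The nearest libraries were close in both fractions. The difference between the fractions was 0.92 ± 0.35 (SE) on the log2 scale, with an edgeR adjusted p of 1.00 (0.374 to 1.00 over 16 alternatives), so it did not pass the correction.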

How the results depend on the processing

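The members' log2 folds kept their direction in the pull-down comparisons under every alternative run. In FA 3 to 5 members counted as lower when 1 library was left out. When 1 library was left out, the input difference of RNU2-2P ran from -0.397 to 0.0323 and that of RNU12 from -0.412 to 0.0278, both above 0 only without replicate 3 of FA_IN. The interaction ran from -0.139 to 1.15 for RNU4-2, from -3.65 to 4.85 for RNU5A-1 and from -0.507 to 1.38 for RNU5B-1, below 0 without replicate 3 of FA_IP and, at -0.07 for RNU5A-1, without replicate 3 of CA_IP. The cause was not tested.

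Counts over the 105 protein genes moved more. For lower calls in FA (5), library size gave 3, no filter 8, the block on file number 11, the block on RNA pool 12, and leaving out a library 1 to 6. For higher calls in FA (0), these were 5 with library size, 3 with the block on file number and 10 with the block on RNA pool. For lower calls in CA (6), 4 libraries gave 2, the replicate block 11, the pool block 13, and leaving out a library 2 to 7. For higher calls in CA (0), library size gave 9, the replicate block 11 and the pool block 19. In input the replicate block gave 4 lower calls. The replicate block changed the calls of RNU5A-1 in CA and RNU12 in FA, and no other call of a member. Depth limits RNU4ATAC and RNU5A-1, with 0 to 40 counts a library. RNU11 was at 0, while a record that shares 131 of its bases was counted, and the cause was not tested. Over all genes, lower calls were 268 in FA and 322 in CA, against 515 and 539 with no filter, 586 and 706 with the replicate block, 840 and 1067 with the pool block and 371 and 404 with DESeq2. In input 1 gene was called, against 244 lower and 14 higher with the replicate block, and the interaction had 0, against 5 lower and 20 higher with the pool block.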
